A study of Mus musculus with 3 samples.

Results

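The 10 genes described here encode the core enzymes of the pyruvate dehydrogenase complex (Pdha1, Pdhb, Dlat and Dld), the kinases that switch it off (Pdk1, Pdk2, Pdk3 and Pdk4) and the phosphatases that switch it on again (Pdp1 and Pdp2). They were chosen by name and all 10 were found, as 1 row each, in both deposited tables, which hold 45799 and 45787 gene symbols. RNA was sequenced from RAW264.7, a murine macrophage line from the ascites of a tumour that Abelson murine leukaemia virus had induced. The groups were cells at low density, cells at high density, and cells at high density treated with lipopolysaccharide (LPS), a bacterial ligand of the macrophage receptor Toll-like receptor 4, at 500 ng/ml. The 24 h of LPS began 24 h after the cells were seeded. All groups grew in RPMI medium with heat-inactivated serum, the labels name no genetic change, and each group is 1 library, so that no difference below has a replicate spread or a p-value of its own.

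The pyruvate dehydrogenase complex sits in the mitochondrial matrix and turns pyruvate, the end product of glycolysis, into acetyl-CoA for the citrate cycle and for lipid synthesis. Its E1 enzyme removes carbon dioxide from pyruvate, E2 passes the acetyl group to coenzyme A, and E3 reoxidises the lipoyl arm of E2. Phosphorylation of the E1 alpha subunit by the kinases stops the reaction and dephosphorylation restarts it, so the kinases help to set how much pyruvate goes to lactate instead. In macrophages, LPS is known to raise glycolysis and to reshape the citrate cycle, and Pdk1 is a textbook target of the hypoxia-inducible factor HIF-1.

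Levels are FPKM, fragments scaled to transcript length and to the size of the library, as deposited. Per-length values allow levels of different genes to be compared. The tables share the high density library, scaled anew in each, with a median shift of -0.14 on the log2 scale in the table with LPS over 10908 genes, and of -0.15 to -0.11 for the 9 members above 0. Ratios were therefore taken within a table only. A gene counts as measured at 1 FPKM or more in either library, and as 2-fold higher or lower when log2((FPKM + 1)/(FPKM + 1)) reached 1 or -1. Of the 10 members, 9 were measured in each table. The exception was Pdk4, listed at 0 throughout. Because both comparisons use the same high density library, they are not independent of each other.

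The libraries fit the label of the line: all 8 macrophage markers listed were measured (Cd68 only in a row joined with Eif4a1 and Mpdu1, so that its level may not be its own), and 1 of 19 markers of T cells, B cells, neutrophils, fibroblasts and epithelial cells was. That one was S100a8, a neutrophil calprotectin gene, at 1.26 FPKM without LPS and 8.70 with it. Of the other 3 neutrophil markers, S100a9 was listed at 0 in all libraries, and Ly6g and Mpo were at 0.22 FPKM or less. Mitochondrially encoded loci took 19.5% of the summed FPKM at low and 12.7% at high density, and 12.8% without and 7.40% with LPS. Ribosomal RNA loci took 0.642% and 1.88%, and 1.83% and 1.42%. The part of these shifts in the results below was not tested.

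**Figure D1:**
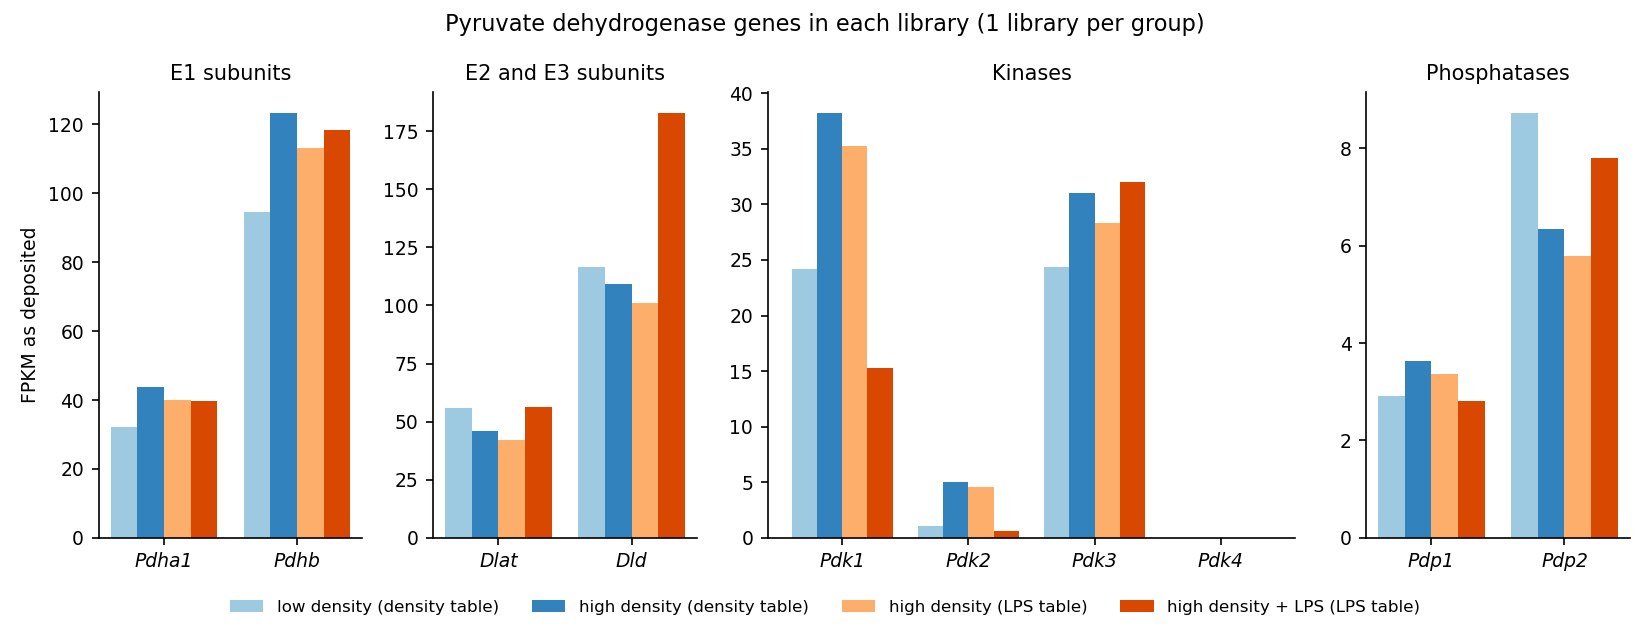
Deposited FPKM of the 10 genes, by enzyme role, with 1 bar per library and table (each panel has its own axis from 0). Pdk1 was tallest at high density (38.2 FPKM) and shortest with LPS (15.3), Pdk2 followed the same order at a far lower level, Dld stood out with LPS (183), and Pdk4 has no bar because it is listed at 0.

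The largest differences were in Pdk2 and, with LPS, Pdk1. Pdk2 was higher at high than at low density and lower with LPS than without it, Pdk1 went the same ways by less, Pdk3 stayed within 1.27-fold in both comparisons, and Pdk4 was listed at 0 in every library. The start regions of Pdk1, Pdk2 and Pdk3 are shown because these genes differed in the size of their density ratios and, with LPS, Pdk3 was not lower as Pdk1 and Pdk2 were. Each is the RefSeq promoter window on GRCm38.p6, 250 bases before to 50 after the gene start (for Pdk1 and Pdk2, the outer of 2 windows), read 5′ to 3′ along the gene. Capitals mark the core letters bound by HIF and related factors, ACGTG or GCGTG, on either strand. The window of Pdk1 is chr2:71872974-71873273 (plus strand), that of Pdk2 chr11:95041322-95041621 (minus strand) and that of Pdk3 chrX:93832101-93832400 (minus strand).
Pdk1: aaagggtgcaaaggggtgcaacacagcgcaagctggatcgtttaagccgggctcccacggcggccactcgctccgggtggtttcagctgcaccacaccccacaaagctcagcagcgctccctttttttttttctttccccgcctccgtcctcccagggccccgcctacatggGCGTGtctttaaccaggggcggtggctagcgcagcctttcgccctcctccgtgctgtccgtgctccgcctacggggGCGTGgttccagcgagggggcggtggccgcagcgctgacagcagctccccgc
Pdk2: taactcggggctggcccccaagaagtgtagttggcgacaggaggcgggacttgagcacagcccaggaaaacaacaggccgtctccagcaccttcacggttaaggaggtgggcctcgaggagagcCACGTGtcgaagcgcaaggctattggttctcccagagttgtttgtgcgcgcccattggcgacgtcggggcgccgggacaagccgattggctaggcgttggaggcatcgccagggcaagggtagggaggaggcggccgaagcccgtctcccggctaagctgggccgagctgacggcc
Pdk3: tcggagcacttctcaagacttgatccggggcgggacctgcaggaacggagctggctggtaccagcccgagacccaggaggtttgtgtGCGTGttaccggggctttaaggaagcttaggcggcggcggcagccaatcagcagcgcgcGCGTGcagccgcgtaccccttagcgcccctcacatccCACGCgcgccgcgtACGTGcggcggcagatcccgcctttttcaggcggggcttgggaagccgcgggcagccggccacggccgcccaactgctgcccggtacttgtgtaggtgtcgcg

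The Pdk1 window held GCGTG at 2 places. In Pdk2 the only match was the palindrome CACGTG, which reads as ACGTG on both strands and so counts as 2 matches of that core. Pdk3 held 3 matches of GCGTG and 1 of ACGTG. Either core occurred in 43.8% of the 32851 promoter windows of this length, GCGTG in 32.4%, ACGTG in 19.6% and CACGTG in 7.15%. Windows were found for 9 of the 10 members, and 7 of these held either core. Pdha1 held GCGTG at 4 places, Pdhb 1 of each core, Pdk4 1 GCGTG, and Pdp2 the palindrome. The windows of Dlat and Dld held neither. A match is a stretch of letters and not a bound site. Among the kinase windows, Pdk3 held the most matches and Pdk2, with the largest ratios, only the palindrome. Whether matches bear on the ratios was not tested.

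Pdk2 (chromosome 11, 95026258 to 95041371) encodes a widely expressed kinase isoform. Its level was 1.03 FPKM at low density against 5.04 at high density, from about 38 and 181 fragments. That is 4.88-fold higher at high density, with a 95% exact binomial interval of 3.43 to 7.12 that covers counting error only, and a log2 ratio of 1.57 after adding 1 FPKM. In the table with LPS it was 4.56 FPKM without and 0.641 with LPS, about 180 and 21 fragments. This is 7.11-fold lower with LPS (counting interval 4.51 to 11.8), at a log2 ratio of -1.76. With LPS it lay under the 1 FPKM minimum and was counted only through the untreated library. At low density 3.82% of the measured genes were lower than Pdk2, against 24.8% at high density, so it was a low gene in both. Other gene models within its span were listed at 0.

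Pdk1 (chromosome 2, 71873215 to 71903887), the HIF-1 target, was one of the 2 dominant kinase genes. It was 24.2 FPKM at low density against 38.2 at high density, 1.58-fold higher (counting interval 1.49 to 1.67) with a log2 ratio of 0.64, short of 2-fold. Without LPS it was 35.2 FPKM and with LPS 15.3. That is 2.30-fold lower with LPS (2.15 to 2.46), at a log2 ratio of -1.15. It thus passed 2-fold with LPS only, resting on about 3219 and 1177 fragments.

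Pdk3 (chromosome X, 93763835 to 93832257) encodes an isoform known for its strong activation by the lipoyl domain of E2. Its level was 24.4 FPKM at low against 31.0 at high density, 1.27-fold higher (1.16 to 1.40). It was 28.3 FPKM without LPS and 32.0 with it, 1.13-fold higher (1.03 to 1.23). The values with and without LPS lay close together, while Pdk1 separated. Pdk4 (chromosome 6, 5483351 to 5496278), the isoform induced in fasting muscle and liver, was listed at 0 in both tables. The authors' tables give its status as NOTEST in both comparisons. Cuffdiff can also list a 0 where an estimate failed, so no upper limit is given.

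**Figure D2:**
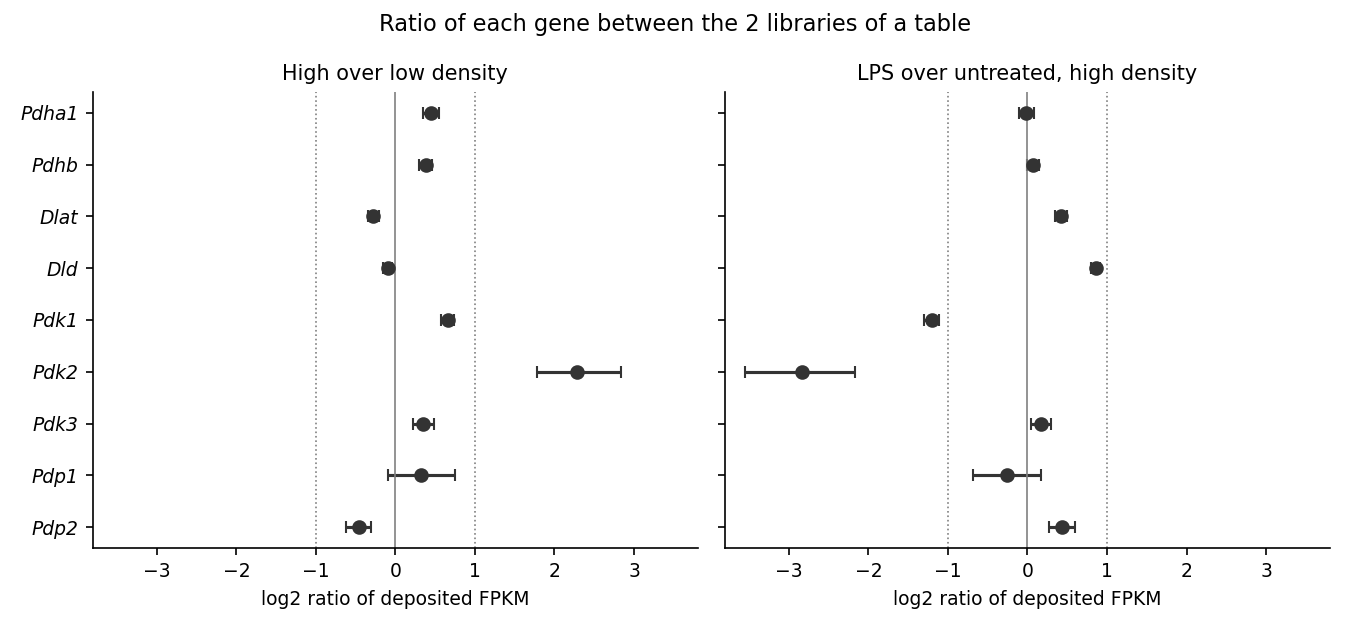
Log2 ratio of deposited FPKM, without an added value, for the 9 genes above 0, at high over low density (left) and LPS over untreated (right); bars are 95% exact binomial intervals for counting error only, and dotted lines mark 2-fold. Pdk2 lies past 2-fold on opposite sides in the 2 panels, Pdk1 passes it in the right panel, and the other 7 genes lie inside it in both.

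Since FPKM is per length, the 4 kinase levels can be summed, with Pdk4 entered at its listed 0. The sum was 49.6 FPKM at low density against 74.2 at high density, 1.50-fold higher (approximate counting interval 1.43 to 1.57) with a log2 ratio of 0.57. It was 68.1 FPKM without LPS and 47.9 with it, 1.42-fold lower (approximately 1.35 to 1.50), at a log2 ratio of -0.50. The makeup differed as well as the total. Pdk1 and Pdk3 were near parity at low density, with 48.8% and 49.1% of the kinase FPKM. At high density Pdk1 had 51.5%, Pdk3 41.7% and Pdk2 6.80%, up from 2.08%. With LPS Pdk3 was the major isoform at 66.7% (41.6% without), Pdk1 had 31.9% (51.7% without) and Pdk2 1.34% (6.69% without). These shares describe mRNA, and protein or phosphorylation was not measured.

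**Figure D3:**
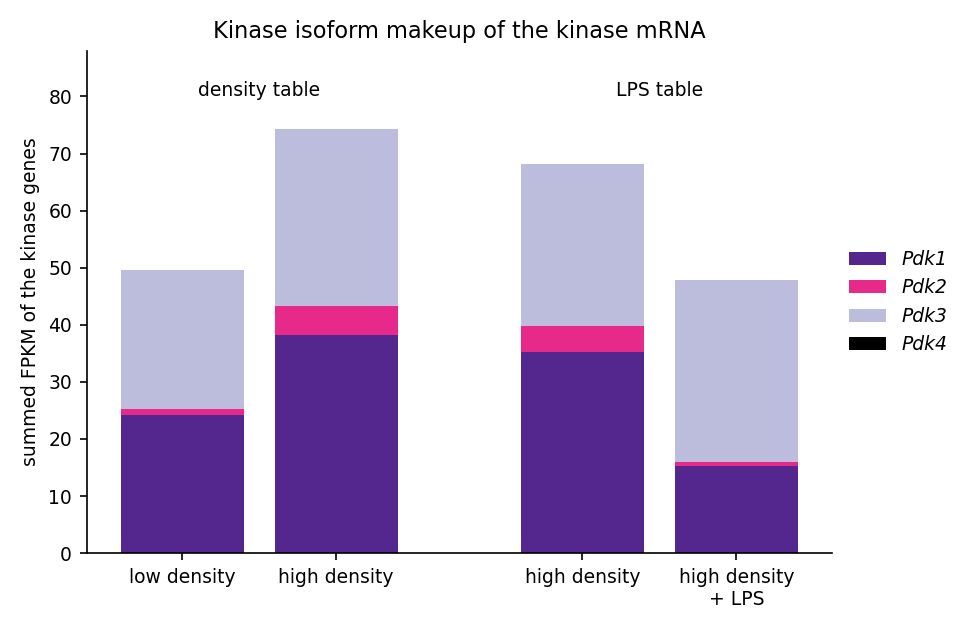
Summed FPKM of the kinase genes in each library, stacked by isoform, for the density table (left pair) and the LPS table (right pair). The stack was 74.2 FPKM at high and 49.6 at low density, and with LPS (47.9 against 68.1) the difference lay in Pdk1 and Pdk2 while the Pdk3 block was similar.

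The phosphatase genes were lower than the main kinases and stayed within 2-fold in both comparisons. Pdp2 (chromosome 8, 104591472 to 104599026), the calcium-insensitive phosphatase, was 8.72 FPKM at low against 6.34 at high density, 1.38-fold lower (1.23 to 1.53). It was 5.79 FPKM without and 7.80 with LPS, 1.35-fold higher (1.20 to 1.51). Pdp1 (chromosome 4, 11958183 to 11966450), the calcium-stimulated one, was 2.90 and 3.64 FPKM by density and 3.36 and 2.81 by LPS. Its ratios of 1.25 (0.938 to 1.68) and 0.838 (0.620 to 1.13) had counting intervals that span 1, at about 79 to 111 fragments. For other genes, an interval that excludes 1 covers counting error only and does not show a difference between cultures. Pdp2 thus sat opposite to Pdk1 and Pdk2 in both comparisons, at a smaller size. The kinase sum was 4.27 times the phosphatase sum at low density and 7.44 times at high density, and 7.45 times without and 4.51 times with LPS. This quotient was formed after the values were seen. The high density library is shared by both comparisons, so the directions of Pdp2 and of the quotient are not separate observations.

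Among the enzymes, E3 differed most with LPS and least by density. Dld (chromosome 12, 31331562 to 31351471), the lipoamide dehydrogenase that also serves the 2-oxoglutarate and branched-chain complexes, was 101 FPKM without LPS and 183 with it. That is 1.81-fold higher (1.74 to 1.88) at a log2 ratio of 0.85, short of 2-fold. By density it was 117 and 109 FPKM, 1.07-fold lower at high density (1.03 to 1.11). Dld was the most abundant of the 10 genes at low density and with LPS, above 93.5% and 95.7% of measured genes. At high density Pdhb was higher.

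Dlat (chromosome 9, 50634633 to 50659780), the acetyltransferase E2, was 55.8 FPKM at low against 46.1 at high density, 1.21-fold lower (1.15 to 1.27). It was 42.1 FPKM without and 56.3 with LPS, 1.34-fold higher (1.27 to 1.41). Dlat and Dld were thus lower at high density and higher with LPS, by less than 2-fold each time. Their log2 ratios lay between the 5th and 95th percentiles of all measured genes (-0.63 to 0.87 by density, -1.07 to 1.31 by LPS). The opposite directions share the high density library, so they are not separate observations.

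Both E1 subunit genes were higher at high than at low density and near level with LPS, in 1 library per group. Pdha1 (chromosome X, 159988204 to 160138430), the alpha subunit that the kinases phosphorylate, was 32.2 FPKM at low against 43.8 at high density, 1.36-fold higher (1.27 to 1.46). Its row spans Map3k15 and Gm39547 too, both at 0.126 FPKM or less. With LPS it was 39.8 FPKM against 40.1, a ratio of 0.991 (0.928 to 1.06). Pdhb (chromosome 14, 8165991 to 8176348), the beta subunit, was 94.6 FPKM at low against 123 at high density, 1.30-fold higher (1.23 to 1.38). Without LPS it was 113 FPKM and with it 118, a ratio of 1.05 (0.994 to 1.10). Pdhb mRNA was 2.81 to 2.98 times Pdha1 mRNA in all libraries, although the 2 proteins form one tetramer in equal numbers. Dld was 2.09 times Dlat at low density, 2.37 times at high density, and 2.40 times without and 3.24 times with LPS.

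Counted over the list, 1 of 9 measured members (Pdk2) was 2-fold higher at high density, where 3.54% of 10903 measured genes were, and 0 were lower, against 0.899%. With LPS 0 of 9 were 2-fold higher, against 8.6% of 11001 genes, and 2 (Pdk1 and Pdk2) were lower, against 5.84%. Counts this small are not read as setting the list apart, and with 5 FPKM added in place of 1 they were 0 in every direction (Pdk2 at 0.74 and -0.76, Pdk1 at -0.99 by LPS). The members' median log2 ratio was 0.34 by density and 0.07 by LPS, beside 0.01 and 0.03 over all measured genes. In the authors' deposited table by density, Pdk2 has p = 0.00325 and q = 0.326, and in that for LPS p = 0.0438 and q = 0.834. The authors' deposited table calls none of the 9 in either comparison, from a Cuffdiff test without replicates that called 0.238% of 13045 tested loci higher and 0.0153% lower by density, and 0.273% and 0.0682% of 13188 by LPS.

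The size of the density differences depended on scaling. Equalising the library sums after leaving out the 20 highest genes moved the median of all genes to -0.20. The log2 ratios were then 1.41 for Pdk2, 0.41 for Pdk1, 0.20 for Pdha1, 0.14 for Pdhb, 0.11 for Pdk3 and 0.07 for Pdp1. Dld was at -0.33, Dlat at -0.50 and Pdp2 at -0.61. This scaling multiplies all genes of a library by the same factor, so genes and median shift nearly alike. A gene's place above or below the median is thus all but fixed in advance and is not read as a check.

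Around the complex, 52 further genes were listed in 7 groups. By density, 40 were measured, 1 was 2-fold higher and 0 lower, beside 3.54% and 0.899% of all measured genes. By LPS, 41 were measured, 3 were 2-fold higher and 3 lower, beside 8.6% and 5.84%. Such small counts are not read as setting these lists apart. Of the complex's remaining parts, Pdhx, the E3-binding protein, was 2.02 and 1.62 FPKM by density and 1.48 and 1.61 by LPS. It has 2 rows, on chromosome 2 and on an alternate scaffold, so its reads may be split and its level is uncertain. Pdpr, the regulatory subunit of the phosphatase, was 6.25 and 5.90 FPKM by density and 5.42 and 3.88 by LPS. Testis-specific Pdha2 was listed at 0.

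Pkm and Ldha were far more abundant than any member. Pkm, the pyruvate kinase that makes pyruvate, was 1033 FPKM at low against 1795 at high density (log2 ratio 0.80), and 1630 and 1346 by LPS (-0.28). Ldha, which turns pyruvate into lactate, was 1506 and 2620 FPKM by density (0.80), and 2383 and 2122 by LPS (-0.17). The mitochondrial pyruvate carrier gene Mpc2 was 75.0 and 69.3 FPKM by density, and 63.0 and 56.1 by LPS. Within the list of other fates, 0 of 6 measured genes passed 2-fold by density and 1 was lower by LPS, with medians of 0.72 and -0.30. That gene was Me2, the mitochondrial malic enzyme, at 38.3 FPKM without and 17.4 with LPS (-1.09), and 23.1 and 41.8 by density (0.83). Ldhb was listed at 0.

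Cofactor genes and the sister complexes gave single calls. In lipoate and thiamine supply, 0 of 9 passed 2-fold by density and 1 was lower by LPS, with medians of 0.15 and 0.34. It was Lipt2, which attaches the octanoyl precursor of lipoate, at 4.50 and 1.56 FPKM (-1.10). The iron-sulfur genes Glrx5 and Nfu1 were the most abundant there, at 160 and 127 FPKM and at 40.8 and 57.7 without and with LPS. Among 7 measured genes of the related 2-oxoacid dehydrogenases, Bckdha, the branched-chain E1 alpha gene, was 15.5 FPKM at low against 35.6 at high density (1.15). Dbt, the branched-chain E2 gene, was 5.68 FPKM without and 14.4 with LPS (1.20). Dlst and Ogdh of the 2-oxoglutarate complex were 48.0 and 67.3 FPKM, and 40.6 and 46.4, without and with LPS. The list's medians were -0.22 by density and 0.19 by LPS.

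Of the genes that use acetyl-CoA or supply it from acetate, 0 of 6 passed 2-fold by density and 1 was lower by LPS, with medians of 0.22 and -0.66. It was Acss1, the mitochondrial acetate-activating enzyme, at 6.95 FPKM without and 0.867 with LPS (-2.09), so that it was counted only through the untreated library. It was 5.91 and 7.63 FPKM by density. Cs, citrate synthase, which takes the acetyl-CoA into the cycle, was 148 and 161 FPKM by density and 147 and 140 by LPS. The citrate carrier gene Slc25a1 was listed at 0 on both of its rows, 1 of them on an alternate scaffold. Acat1, a thiolase, was 79.2 FPKM without and 47.1 with LPS (-0.74).

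Transcription factors known to act on kinase genes included Hif1a, at 27.9 FPKM at low against 18.2 at high density (-0.59), and 17.3 without and 41.3 with LPS (1.21). Its mRNA was therefore lower where Pdk1 was higher and higher where Pdk1 was lower. Both comparisons share the high density library, so these are not separate observations. Control of Pdk1 by HIF-1 was not tested. HIF-1 alpha is known to be set largely by protein stability, which was not measured. Myc was 0.690 FPKM without and 5.01 with LPS (1.83), counted only through the LPS library. Esrra, an orphan receptor that acts on Pdk4 in other cells, was 33.8 and 37.7 FPKM by density and 34.0 and 41.4 by LPS. Ppara was listed at 0, and so was Ppard, on 2 rows. Over the list, 0 of 7 measured passed 2-fold by density and 2 of 8 were higher by LPS, with medians of 0.28 and 0.47.

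**Figure D4:**
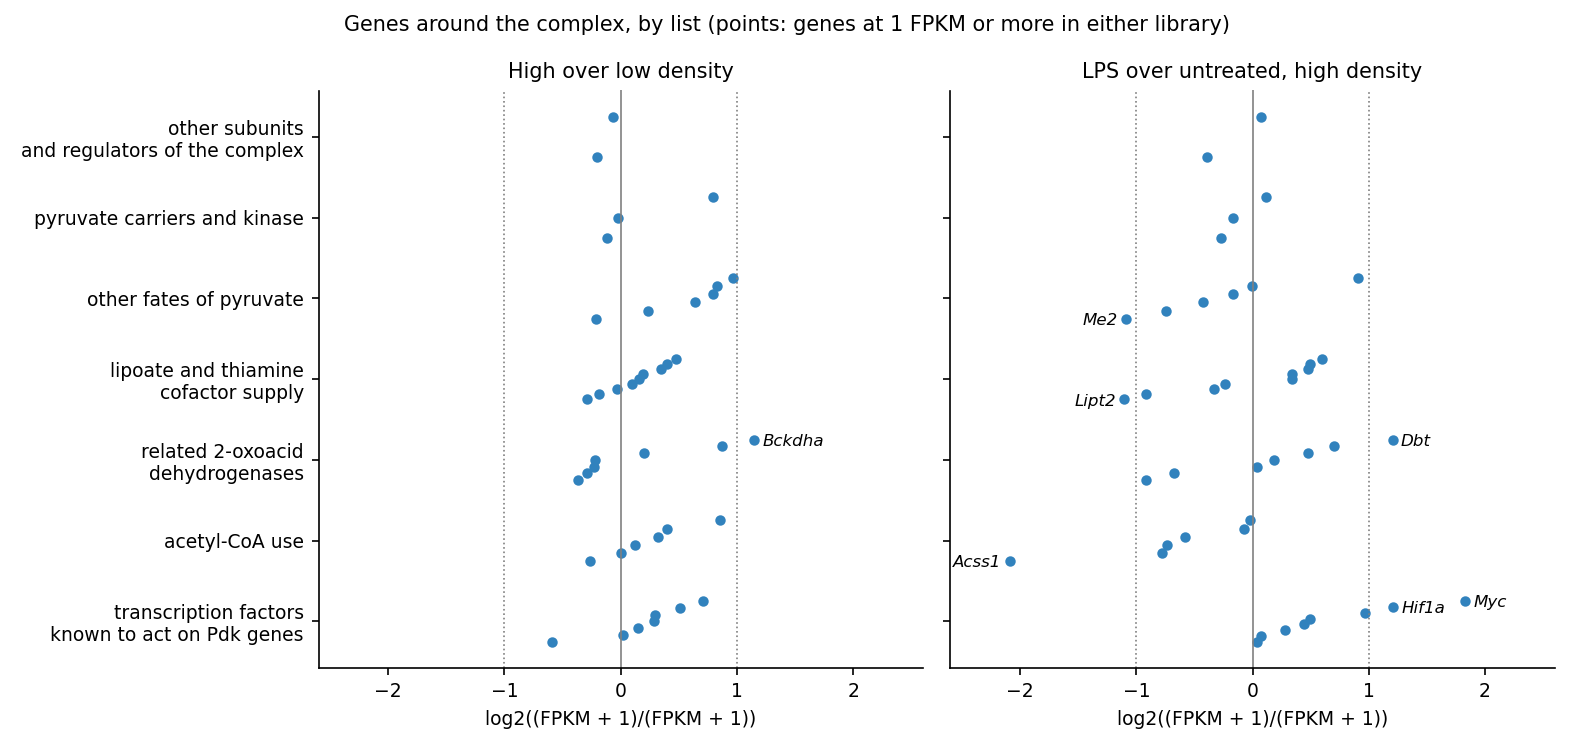
Log2((FPKM + 1)/(FPKM + 1)) of each measured gene in the 7 lists, at high over low density (left) and LPS over untreated (right), with names for genes past 2-fold (dotted lines). A single gene, Bckdha, passes the line on the left, and 6 do on the right.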

How the data were processed

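Per the submitters' processing notes, reads were handled with FastQC, fastp, TopHat2 and Cuffdiff on GRCm38 or mm10; no source used here gives versions, annotation or strand. The authors deposited 2 tables, whose columns hold, per the file headers, FPKM for 2 libraries, a log2 fold change, a test statistic (a score), and p-values and q-values per locus. Read counts and total depth are not given. For each symbol the row with the largest summed FPKM was used; all members had 1 row per table. Ratios were log2((FPKM + 1)/(FPKM + 1)); 1 FPKM in either library counted as measured. No test was run, since each group has 1 library.

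Fragments were approximated. In single-transcript genes of at least 1000 bases (GENCODE M21 lengths), the lowest FPKM times kilobases gathered at 0.0615 and 0.0627 (density table) and 0.0568 and 0.0674 (LPS table), read as 1 fragment. Members' fragments used the shortest principal transcript. Intervals are exact (Clopper-Pearson) binomial at 95% and cover counting error only, not variation between cultures. For the summed kinases, fragments were pooled over transcripts of unlike length. The interval of that sum is therefore approximate and may be too narrow. Steps were run on simulated data that held counting error only. Variation between cultures and errors in transcript length were therefore not tested. The software was Python 3.11.15, pandas 2.3.3, NumPy 2.4.6 and SciPy 1.17.1.

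The members and lists were chosen with earlier results of these data known. All 10 members are named; of the 52 other genes, those past 2-fold and the 2 with the highest mean FPKM per list. Pdha2, Ldhb, Slc25a1, Ppara and Ppard, listed at 0, were added after their values were seen.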

Additional observations from a re-analysis of the deposited data

How the results depend on the processing

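The alternatives run were a pseudocount of 0.1, 5 or 0 (the last chosen after seeing the data), no minimum, a minimum of 5 FPKM, both scalings and summed rows. Over these, 0 of 141 member values changed sign. Only the scalings could have changed one. Adding the same value to both libraries, changing the minimum or summing single rows cannot turn a ratio round. A pseudocount of 5 left 0 members 2-fold higher by density and 0 lower by LPS, where the log2 ratio of Pdk2 was 0.74 by density and -0.76 by LPS, and that of Pdk1 by LPS -0.99. A minimum of 5 FPKM left 1 member lower by LPS, since Pdk2 was then not measured. Rescaling without the 20 highest genes took the log2 ratio of the summed kinases by density to 0.34. The pseudocount acts mainly on Pdk2, whose log2 ratios ranged from 0.74 to 2.29 by density and from -2.83 to -0.76 by LPS. Leaving out a replicate was not possible with 1 library per group. No paired analysis was possible because each group has 1 library. Depth limits Pdk2 with LPS and Pdp1 most, at about 21 and 79 fragments.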

Other observations

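Among 7262 genes of 10 FPKM or more in a library and above 0 in all, those with the pair of log2 ratios nearest to Pdk2, the member with the largest ratio in both tables, were Cbr2, Il10ra, Chrnb1, Pdcd4 and Fxyd2. Their Euclidean distances over the 2 ratios ran from 0.0887 to 0.252, over 3 libraries. The ratios have 1 FPKM added, which put Pdk2 at 1.57 by density and -1.76 by LPS. Without it Pdk2 was at 2.29 and -2.83, so the small distances hold only with the added value. Cbr2, a carbonyl reductase gene, was 9.55 FPKM at low against 29.2 at high density, and 25.6 without and 6.48 with LPS. Il10ra, the interleukin 10 receptor alpha chain, was 6.25 and 18.4 FPKM, and 16.7 and 4.77. Pdcd4, an inhibitor of translation, was 6.86 and 20.3 FPKM, and 18.6 and 5.66. Fxyd2, a sodium pump modulator, was 409 and 1154 FPKM, and 1046 and 261. Chrnb1 was 5.92 FPKM at high density in one table and 56.1 in the other, for the same library, so its likeness is not reliable. Likeness over so few libraries is a description and says nothing of shared control.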
